A study of Rattus norvegicus with 12 samples.

Results

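The Rab GTPases are the largest branch of the Ras superfamily and were taken here as all transcripts whose gene symbol is Rab followed by a number and, at most, a letter and a digit, which leaves out their effectors. The rule found 55 of 18752 transcripts, 1 for each of 55 of the 17301 gene names. The rule reads the gene symbol alone. Their levels were followed in primary adult rat ventricular myocytes (ARVMs), heart muscle cells isolated from male Sprague-Dawley rats. Cells in culture received an adenovirus at 50 MOI (viral particles able to infect, per cell) and were collected 48 h later. The 6 Ad-GFP samples expressed green fluorescent protein and served as the control. The 6 Ad-h-NR4A2 samples expressed the full-length human nuclear receptor NR4A2, a transcription factor, from the cytomegalovirus promoter. Both groups therefore carried an adenovirus, and no sample without virus was analysed here. The question was which Rab genes changed when NR4A2 was overexpressed.

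A Rab protein is a switch that sits on the membrane of a vesicle or organelle while it holds GTP and is inactive while it holds GDP. Exchange factors load GTP, GTPase-activating proteins end the active state, and GDP dissociation inhibitors carry the inactive protein through the cytosol. Each Rab marks its own compartment and recruits effectors that tether, move or fuse vesicles, and in cardiomyocytes such traffic brings channels, receptors and glucose transporters to the sarcolemma and removes worn organelles by autophagy.

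Levels are given as FPKM, fragment numbers scaled to transcript length and library depth. Nr4a2 itself lay under 2 FPKM in each Ad-GFP sample and at 445 to 592 FPKM in Ad-h-NR4A2. Reads of the human transgene on the rat transcript cannot be told apart from reads of the rat gene. The depth recovered from the low values was 18800000 to 28000000 fragments per sample. The 6 cardiomyocyte markers summed to 16105 to 20778 FPKM in Ad-GFP and 14680 to 17406 in Ad-h-NR4A2, and by limma 4 of them fell (Myh6, Myh7, Tnnt2 and Ryr2), Actn2 rose and Tnni3 did not pass. The 14 markers of fibroblasts, smooth muscle, endothelium and leukocytes summed to 35.9 to 63.1 and 54.8 to 93.2 FPKM, with Col1a2 listed at 0 in all samples. Of those tested, Myh11 fell and only Csf1r rose, from 5.48 to 17.1 FPKM in Ad-GFP to 36.8 to 43.4 in Ad-h-NR4A2, whereas the leukocyte markers Cd68 (0.177 to 0.687 and 0.265 to 0.752) and Ptprc (at most 0.0405 and 0.0489) were under 1 FPKM. The part of these cells in the Rab levels was not tested. In RNA from a cell population, fewer cells of a type and less RNA per cell cannot be told apart.

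The promoters of 45 of the 55 Rab genes were found in RefSeq by accession (build GRCr8). NR4A2 binds as a monomer to the NBRE, with the letters AAAGGTCA, and this run was searched on both strands of the 250 bases before each start. It was in 0 of the 45 Rab promoters and in 1.11% of all 27457 promoters of the table. The shorter run AGGTCA, the nuclear receptor half-site within the NBRE and searched after the longer run was found in none of them, was in 5 Rab promoters (11.1%) and in 13.7% of all promoters. These 5 were Rab32, Rab33b, Rab3c, Rab5a and Rab7b. Shown are the 3 that belong to genes described below as differentially expressed, which let a reader see where the letters lie. They are printed 5′ to 3′ on the strand of the gene, up to the first base of any RefSeq model, with AGGTCA or its reverse complement in capitals. A match of letters is no evidence of binding, and the absence of a match says only that the letters are not in this window.
Rab33b, chr2:137678728-137678952, plus strand: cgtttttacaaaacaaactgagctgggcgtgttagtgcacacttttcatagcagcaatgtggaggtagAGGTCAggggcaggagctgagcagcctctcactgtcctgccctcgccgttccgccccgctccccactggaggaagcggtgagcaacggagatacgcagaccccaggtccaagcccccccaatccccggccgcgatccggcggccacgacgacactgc
Rab7b, chr13:45673195-45673395, plus strand: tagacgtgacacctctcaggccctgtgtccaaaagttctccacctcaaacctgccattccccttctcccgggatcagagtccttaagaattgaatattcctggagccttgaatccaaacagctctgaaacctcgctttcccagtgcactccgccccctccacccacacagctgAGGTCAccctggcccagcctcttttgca
Rab32, chr1:6781259-6781508, minus strand: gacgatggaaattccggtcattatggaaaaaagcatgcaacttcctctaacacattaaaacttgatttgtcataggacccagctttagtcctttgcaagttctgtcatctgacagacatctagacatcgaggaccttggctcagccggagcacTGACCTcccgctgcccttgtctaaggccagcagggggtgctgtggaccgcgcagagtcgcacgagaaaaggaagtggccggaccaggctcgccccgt
Counted to the start at the end of the 250-base window, the run begins 182 bases before it in Rab33b and 77 in Rab7b. In Rab32 it is on the opposite strand, beginning 97 bases before the start. For Rab33b and Rab7b a RefSeq model of the gene begins upstream of that start. Only 225 and 201 of the 250 bases are therefore printed, with the run beginning at printed base 69 in Rab33b and 174 in Rab7b.

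Rab transcripts spanned a wide range of levels in ARVMs. FPKM is scaled to the listed transcript length, so that levels can be set beside each other as far as that length holds. The listed lengths ran from 638 bases (Rab2a) to 6964 (Rab22a), and whether they cover whole transcripts was not tested. In Ad-GFP, 4 Rab genes had a mean of at least 100 FPKM, 27 lay between 10 and 100, 12 between 1 and 10, 10 above 0 but under 1, and 2 were listed at 0. All 55 together summed to 1918 ± 34.4 FPKM (SD, n = 6; 1878 to 1967) in Ad-GFP and 1940 ± 30.05 (1893 to 1969) in Ad-h-NR4A2, or 0.266% of the FPKM of all transcripts in both groups. The summed level of the family thus differed by less than the spread between samples.

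The highest level was that of Rab1a, which directs vesicles from the endoplasmic reticulum (ER) to the Golgi. It lay at 217, 208, 214, 203, 221 and 204 FPKM in Ad-GFP samples 24 to 29, and at 217, 212, 210, 212, 219 and 208 in Ad-h-NR4A2 samples of the same numbers. The groups overlapped, and the log2 fold change was 0.01 (95% interval -0.06 to 0.08). Rab2a, which acts between the ER, the Golgi and the endolysosome, was next, with 188, 174, 185, 178, 191 and 179 FPKM in Ad-GFP and 209, 184, 206, 192, 195 and 177 in Ad-h-NR4A2. Only number 29 was not higher in Ad-h-NR4A2. Rab28, known from the base of the photoreceptor cilium, had 143, 152, 141, 149, 137 and 141 FPKM in Ad-GFP and 131, 144, 138, 145, 128 and 147 in Ad-h-NR4A2. The values of these 3 genes did not overlap with each other in Ad-GFP, and Rab28 did not overlap with the gene below it.

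Rab12, which directs transferrin receptor from recycling endosomes to lysosomes, followed with 122, 115, 100.4, 93.1, 122 and 99.7 FPKM in Ad-GFP and 93.2, 103, 105, 93.8, 117 and 101 in Ad-h-NR4A2. Rab7a, the Rab of the late endosome and lysosome, had 103, 95.5, 103, 95.7, 101 and 97.0 FPKM in Ad-GFP and 99.3, 90.0, 96.7, 89.7, 93.8 and 92.6 in Ad-h-NR4A2. Each number was lower in Ad-h-NR4A2 for Rab7a, yet the groups overlapped. None of these 5 most abundant Rab genes passed the test (limma, two-sided, with Benjamini-Hochberg adjustment over all genes tested). In a fit that pairs same-numbered samples (the replicate block), 2 of them did: Rab2a rose (0.09, adjusted p = 0.0268) and Rab7a fell (-0.08, adjusted p = 0.00842).

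Further down the order, adjacent genes mostly overlapped in their 6 Ad-GFP values. Rab5b (84.8 to 96.4 FPKM) lay just above Rab11a (78.7 to 84.6) without overlap. The other gaps came after Rab4a (35.1 to 40.5), ahead of Rab24 (28.4 to 33.8), and after Rab23 (4.49 to 5.43), ahead of Rab27a (1.41 to 3.83). Rab5a, of the early endosome, had 70.3 ± 4.27 FPKM, but its row covers a locus with no intron, chr14:72908161-72908807 in Rn5. The value is listed for that locus, whereas the Rab5a promoter searched above lies on chr9 in GRCr8. From which of these places its reads came was not tested.

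**Figure D1:**
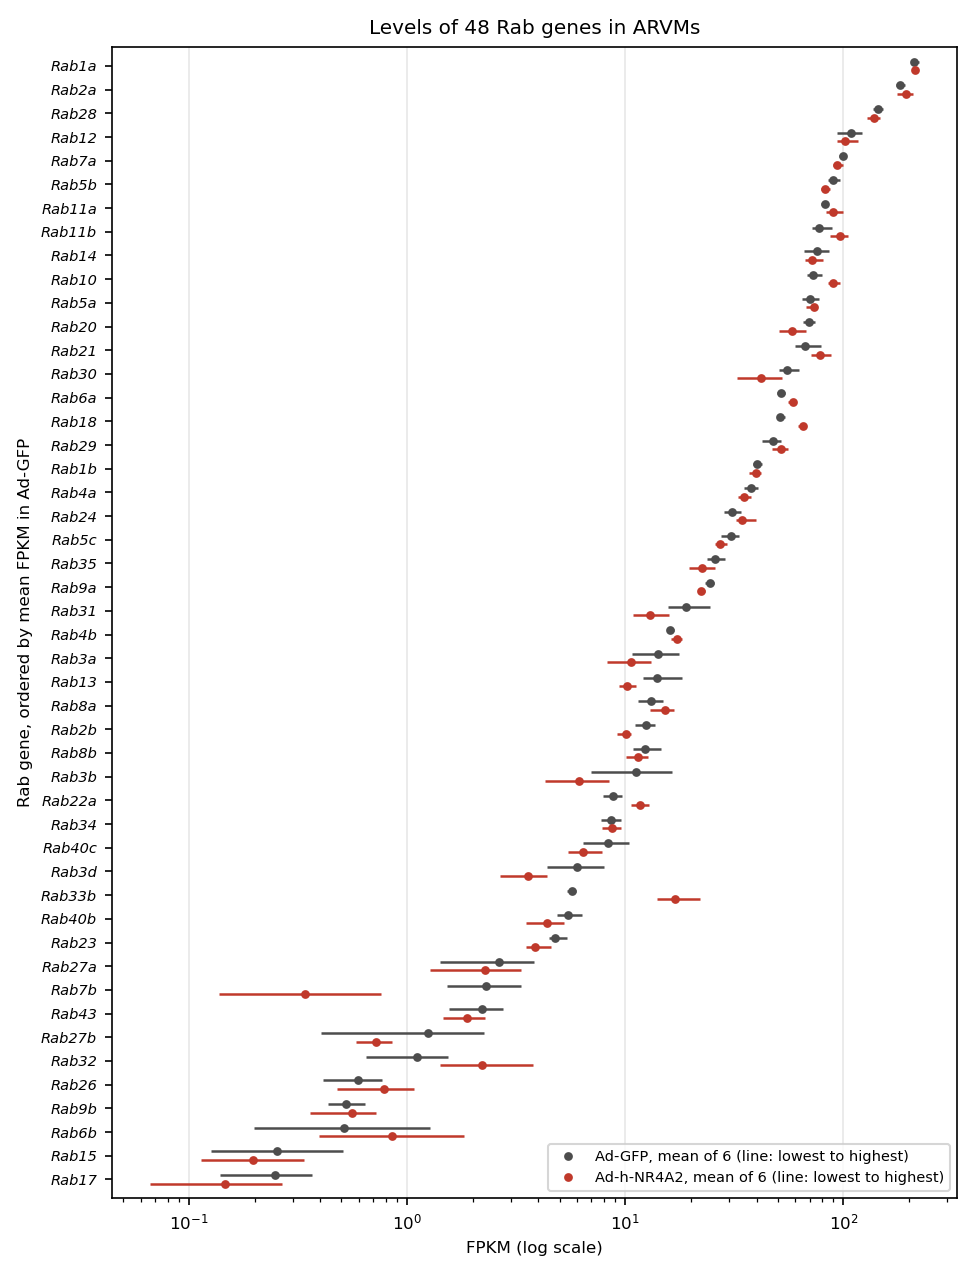
FPKM on a log axis for the 48 Rab genes above 0 in all 12 samples, ordered by their mean in Ad-GFP; points are means of 6 samples and lines run from the lowest to the highest sample, grey for Ad-GFP and red for Ad-h-NR4A2. Rab1a is at the top with 211 FPKM, and the red line lies clear of the grey one for Rab33b, to the right, and Rab7b, to the left.

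For the comparison, 48 Rab genes were above 0 in all 12 samples and were tested among 10950 genes. Of these, 10 were higher in Ad-h-NR4A2 (20.8% of the Rab genes tested), where 19.3% of all genes were called higher, and 16 were lower (33.3%), where 21.7% of all genes were called lower. The other 22 did not pass. Most changes were small: the median log2 fold change was -0.08 for the Rab genes and -0.02 for all genes, and the median size 0.21 and 0.20. Only 5 Rab genes also reached a ratio of group means of at least 1.5 and are called differentially expressed. These were Rab33b and Rab32, upregulated (4.17% of those tested, 7.94% of all genes), and Rab7b, Rab3b and Rab3d, downregulated (6.25%, and 7.24% of all genes). In 10 Rab genes (20.8%) the values of the groups did not overlap, as in 21.5% of all genes. With the replicate block 16 Rab genes were higher (33.3%) and 20 lower (41.7%), where 27.1% of all genes were called higher and 32.3% lower.

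The size of the differences varied with the level. Of the 31 tested genes with a mean of at least 10 FPKM in Ad-GFP, 7 rose (22.6%) and 11 fell (35.5%). Of all genes at that level, 21% rose and 25.6% fell. The log2 fold changes of the 31 ran from -0.81 to 0.34, and 1 was differentially expressed. Of the 17 below 10 FPKM, 3 rose (17.6%) and 5 fell (29.4%), beside 17.5% and 17.3% of all genes below that level. Their log2 fold changes covered a range of -2.54 to 1.54, and 4 of the 17 were differentially expressed. The median size of the difference was 0.15 in the former and 0.37 in the latter, and over all genes of these levels it was 0.16 and 0.25. Of all genes at 10 FPKM or more, 9.92% were differentially expressed, beside 3.23% of the Rab genes, and below that level 20.9% were, beside 23.5%.

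**Figure D2:**
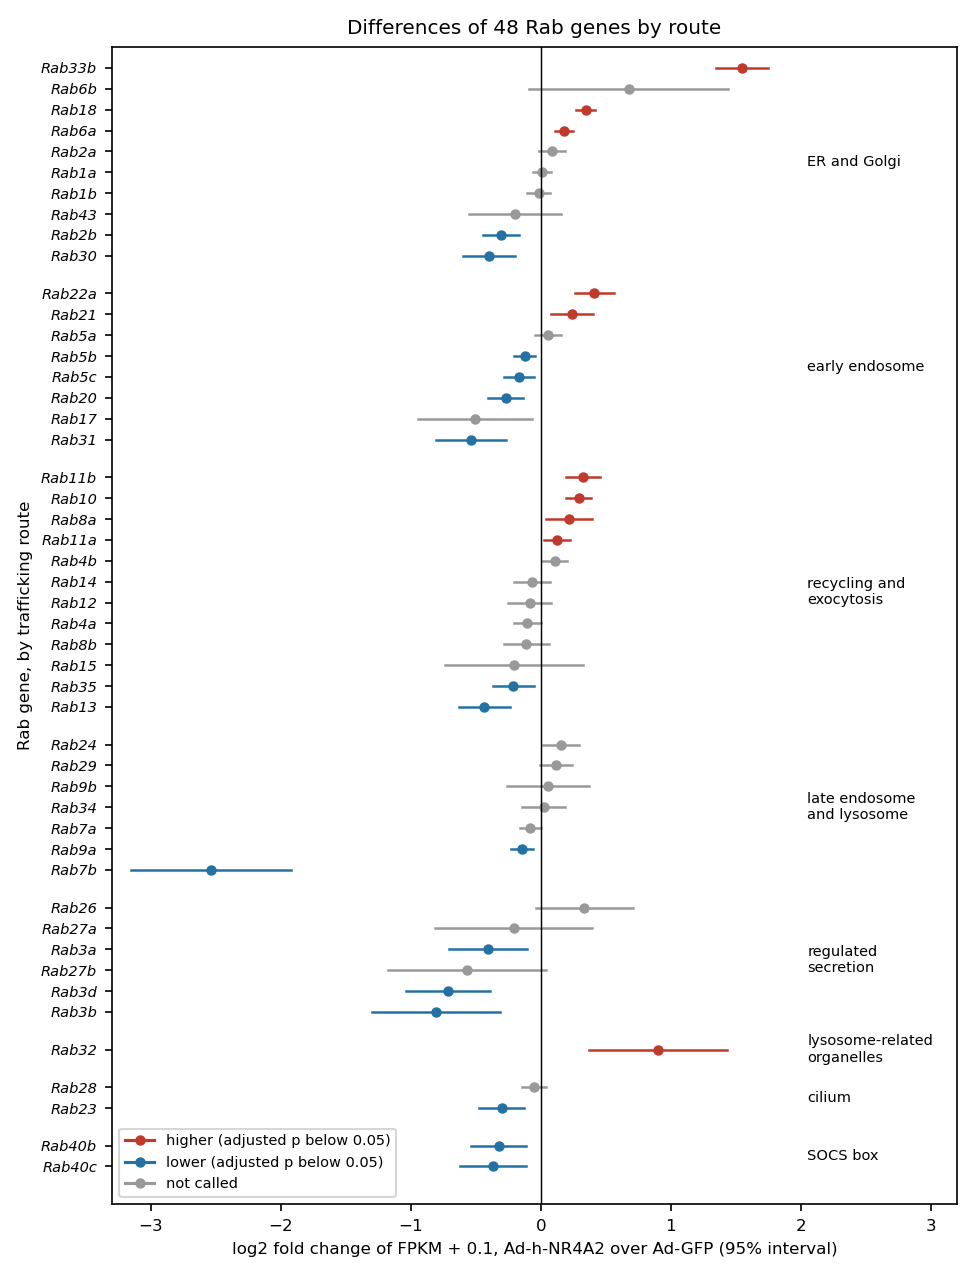
Log2 fold change of FPKM + 0.1 (Ad-h-NR4A2 over Ad-GFP) with its 95% interval from limma for the 48 tested Rab genes, arranged by trafficking route; red, blue and grey mark genes called higher, lower or neither at an adjusted p below 0.05. Most points lie within 0.5 of 0, with Rab33b at 1.54 and Rab7b at -2.54 at the ends.

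Counts by route stand beside the 19.3% of all genes called higher and the 21.7% called lower, and no route was tested as a set. Among the Rabs of the ER and Golgi, 10 of 13 were tested, 3 rose, 2 fell and 5 did not pass. Rab33b, a Golgi Rab that binds the autophagy protein Atg16l1, lies at chr2:160016557-160027156 in Rn5. It measured 5.96, 5.39, 5.63, 5.84, 5.64 and 5.57 FPKM in Ad-GFP samples 24 to 29 and 14.0, 17.1, 15.9, 22.0, 14.8 and 17.7 in Ad-h-NR4A2. The lowest Ad-h-NR4A2 sample lay well above the highest Ad-GFP sample, and number 27 was the highest of its group. Rab33b rose 2.98-fold, from 5.67 ± 0.201 to 16.9 ± 2.85 (SD, n = 6), or by 1.54 ± 0.09 (SE) on the log2 scale, with an adjusted p of 4.11e-08 (limma with Benjamini-Hochberg adjustment). These values rest on 323 to 498 fragments per sample in Ad-GFP and 964 to 1532 in Ad-h-NR4A2.

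Of the genes within 50 kb of Rab33b, Setd7, a lysine methyltransferase, was also upregulated (13.4 to 22.9 FPKM, log2 fold change 0.77, adjusted p = 1.28e-06, limma), and Naa15 did not pass (0.02). Rab18, of the ER and lipid droplets, rose from 51.3 ± 1.59 to 65.2 ± 2.00 FPKM (0.34, adjusted p = 4.44e-06) without overlap. Rab6a, which works in retrograde traffic at the Golgi, rose from 51.7 ± 1.43 to 58.4 ± 1.46 FPKM (0.18, adjusted p = 0.000777), again without overlap. Its brain-enriched relative Rab6b ranged from 0.199 to 1.28 FPKM in Ad-GFP and from 0.395 to 1.82 in Ad-h-NR4A2. It was higher in each of the 6 same-numbered pairs, with a log2 fold change of 0.67 that did not pass (adjusted p = 0.147, limma) but did with the replicate block (adjusted p = 0.00075).

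Rab30, of the Golgi, fell from 55.0 ± 4.45 to 42.0 ± 6.43 FPKM (-0.40, adjusted p = 0.00356). Rab2b, the less abundant relative of Rab2a, fell from 12.4 ± 1.03 to 10.0 ± 0.532 (-0.31, adjusted p = 0.00191), and its groups did not overlap. Rab1b (40.3 and 39.8 FPKM) and Rab43 (2.20 and 1.89) did not pass. Summed over its 13 members, the ER and Golgi class went from 613 ± 11.1 to 642 ± 14.8 FPKM, or from 32.0% to 33.1% of all Rab FPKM.

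Of the 8 Rabs of the early endosome, all were tested, 2 rose, 4 fell and 2 did not pass. Rab22a, which sorts cargo in early endosomes, rose from 8.79 ± 0.646 to 11.7 ± 0.959 FPKM without overlap (0.41, adjusted p = 0.000356, limma). Rab21, known for the endocytosis of integrins, rose from 66.7 ± 7.73 to 78.5 ± 6.02 (0.24, adjusted p = 0.0203, but 0.0538 on the TPM scale). The relative closest to Rab22a, Rab31, which acts between the trans-Golgi network and endosomes, went the other way, from 19.0 ± 3.62 to 13.0 ± 1.89 FPKM (-0.54, adjusted p = 0.00358). It was lower in all 6 pairs, and its ratio of 0.682 narrowly missed the limit of 1.5-fold. Without Ad-GFP 24, 25 or 28 or Ad-h-NR4A2 29 the ratio was 0.660, 0.659, 0.666 and 0.652, past that limit.

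Rab20, of endosomes and phagosomes, fell from 69.9 ± 3.68 to 58.0 ± 5.67 FPKM (-0.27, adjusted p = 0.00327, limma). Of the 3 Rab5 genes, which govern the fusion of early endosomes, Rab5b fell from 89.8 ± 3.75 to 82.4 ± 3.02 (-0.12, adjusted p = 0.0186) and Rab5c from 30.6 ± 2.02 to 27.3 ± 1.51 (-0.17, adjusted p = 0.0242). Rab5a, listed at a locus without an intron, did not pass (0.06). The Rab5c call was lost without any of 5 libraries, with adjusted p values of 0.0508 to 0.0585. Rab17, an epithelial Rab, was near the limit of detection, with 2 to 11 fragments per sample, and did not pass (-0.51, adjusted p = 0.0617), although it did with the replicate block (adjusted p = 0.0271).

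Of the 13 Rabs of recycling and exocytosis, 12 were tested, 4 rose, 2 fell and 6 did not pass. Rab10, which delivers vesicles to the plasma membrane, rose from 72.9 ± 3.92 to 89.2 ± 4.16 FPKM with no overlap (0.29, adjusted p = 0.000148, limma). Rab11b, of the recycling endosome, rose from 77.1 ± 5.98 to 96.6 ± 7.05 (0.32, adjusted p = 0.000695). Its close relative Rab11a rose by less, from 82.4 ± 2.13 to 90.0 ± 6.25 (0.13, adjusted p = 0.0417). Rab8a, which acts in exocytosis and at the cilium, rose from 13.2 ± 1.47 to 15.3 ± 1.30 (0.22, adjusted p = 0.0476). The calls of Rab11a and Rab8a were each lost without any of 9 of the 12 libraries, with adjusted p values up to 0.0912 and 0.104. Rab11a was also lost with quantile normalization (0.08, adjusted p = 0.168), on the TPM scale and without trend, and Rab8a on the TPM scale, without trend, without the filter and with every transcript by itself (adjusted p 0.0521 to 0.0773).

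Rab13, of cell junctions, fell from 14.0 ± 2.16 to 10.2 ± 0.762 FPKM without overlap (-0.44, adjusted p = 0.00173, limma). Rab35, of endocytic recycling, fell from 25.9 ± 1.93 to 22.4 ± 2.32 (-0.21, adjusted p = 0.0307), a call lost without any of 7 libraries (adjusted p 0.0565 to 0.0691). Rab4a and Rab4b, of rapid recycling, went in opposite directions, from 37.7 to 35.1 FPKM and from 16.1 to 17.4. Neither passed (adjusted p = 0.0958 and 0.0680), and both did with the replicate block (0.00933 and 0.0285). Rab14, Rab15 and Rab8b did not pass. The class summed to 536 ± 18.3 FPKM in Ad-GFP and 562 ± 12.0 in Ad-h-NR4A2.

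In the late endosome and lysosome, 7 of 8 Rabs were tested, 2 fell and 5 did not pass. Rab7b, which directs cargo from endosomes to the trans-Golgi network, lies at chr13:53528328-53554460 in Rn5. It measured 2.02, 2.14, 3.05, 1.52, 3.32 and 1.82 FPKM in Ad-GFP samples 24 to 29 and 0.317, 0.235, 0.194, 0.137, 0.762 and 0.391 in Ad-h-NR4A2. The groups did not overlap, and number 28 was the highest of each. Rab7b fell to a ratio of 0.147, from 2.31 ± 0.714 to 0.339 ± 0.226 FPKM (SD, n = 6), or by -2.54 ± 0.29 (SE) on the log2 scale, with an adjusted p of 1.07e-05 (limma with Benjamini-Hochberg adjustment). It rests on 90 to 212 fragments per sample in Ad-GFP and 7 to 46 in Ad-h-NR4A2.

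The size of this difference on the log2 scale depended on the pseudocount, with -1.29 for a pseudocount of 1. Slc26a9, an anion transporter gene within 50 kb of Rab7b, was downregulated too (1.15 to 0.249 FPKM, -1.84, adjusted p = 1.61e-07, limma). Rab9a, which returns mannose 6-phosphate receptors to the Golgi, fell from 24.6 ± 0.805 to 22.3 ± 0.741 FPKM without overlap (-0.14, adjusted p = 0.0112). Rab24, linked to autophagy, went from 30.8 to 34.3 FPKM and Rab29, which recruits the kinase Lrrk2, from 47.5 to 51.6. Neither passed (adjusted p = 0.0657 and 0.110), and both did with the replicate block (0.00822 and 0.00791). Rab24 overlaps Prelid1 in the annotation, and whether reads were assigned by strand is not given in the sources used here. Rab34 and Rab9b did not pass.

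Of the 7 Rabs of regulated secretion, 6 were tested, none rose, 3 fell and 3 did not pass. The 3 that fell were the expressed members of the Rab3 group, which docks secretory vesicles ahead of fusion. Rab3b, at chr5:132343181-132408835 in Rn5, measured 7.08, 16.3, 9.38, 13.5, 6.96 and 13.8 FPKM in Ad-GFP samples 24 to 29 and 4.63, 7.08, 6.36, 6.17, 4.31 and 8.45 in Ad-h-NR4A2. The groups overlapped, but each number was lower in Ad-h-NR4A2. Rab3b fell from 11.2 ± 3.91 to 6.17 ± 1.54 FPKM (ratio 0.552, log2 fold change -0.81 ± 0.23, adjusted p = 0.0124, limma). Numbers 24 and 28 were the lowest of both groups, and the same 4 samples had the lowest summed endothelial markers (Pecam1, Cdh5 and Kdr). That sum was 5.32 and 4.48 FPKM in Ad-GFP 24 and 28 and 10.5 to 15.3 in the other 4, and 5.37 and 3.40 in Ad-h-NR4A2 24 and 28 and 9.06 to 14.1 in the others. The summed fibroblast markers were lowest in the same 4 samples, with 10.0 and 6.98 FPKM against 12.4 to 25.1 in Ad-GFP and 7.71 and 4.96 against 11.7 to 23.9 in Ad-h-NR4A2. The other marker lists did not follow this in both groups. Summed smooth muscle markers were highest in number 24 of both groups (20.2 and 16.5 FPKM). The leukocyte sum was highest in Ad-GFP 28 (17.2 FPKM). Cardiomyocyte sums were also lowest in Ad-GFP 24 and 28 (17339 and 16105 FPKM), but Ad-h-NR4A2 27 (14684) lay under 28 (14764). The part of endothelial cells, fibroblasts or any other cells in the spread of Rab3b was not tested. Within 50 kb of Rab3b, Kti12 rose (0.46, adjusted p = 0.000118, limma) and Txndc12 fell (-0.24).

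Rab3d, at chr8:22975022-22984052 in Rn5, measured 5.00, 4.39, 5.91, 7.98, 5.65 and 7.17 FPKM in Ad-GFP and 3.40, 2.67, 3.79, 4.38, 3.40 and 3.92 in Ad-h-NR4A2. The groups did not overlap, though the highest Ad-h-NR4A2 sample lay just under the lowest Ad-GFP sample, and numbers 25 and 27 were the lowest and the highest of each group. Rab3d fell from 6.02 ± 1.34 to 3.59 ± 0.581 FPKM (ratio 0.597, log2 fold change -0.71 ± 0.15, adjusted p = 0.00178, limma). Within 50 kb of it, Epor and Lppr2 were downregulated as well (-1.08 and -0.62), Tmem205 fell (-0.30) and Swsap1 rose (0.18). Rab3a, the main Rab3 of synapses, fell from 14.1 ± 2.31 to 10.7 ± 2.15 FPKM (-0.41, adjusted p = 0.0307, limma), a call lost without any of 7 libraries (adjusted p 0.0558 to 0.0695). Its locus overlaps Mpv17l2.

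Rab27a and Rab27b, which tether granules at the plasma membrane, varied widely between samples. In both genes, numbers 24 and 28 were the lowest of each group, as for Rab3b. The part of endothelial cells and fibroblasts in this spread was not tested either. Rab27a ranged from 1.41 to 3.83 FPKM in Ad-GFP and from 1.27 to 3.33 in Ad-h-NR4A2, and did not pass. Rab27b ranged from 0.403 to 2.25 and from 0.585 to 0.852, and did not pass either (-0.57, adjusted p = 0.122, limma). With the replicate block, or without Ad-GFP 28, Rab27b was called lower (adjusted p = 0.0380 and 0.00437). Rab26, of secretory granules, went from 0.595 to 0.784 FPKM, with an adjusted p of 0.143, or 0.0428 with the replicate block. Summed over the class, regulated secretion went from 35.8 ± 7.79 to 24.2 ± 3.26 FPKM, in groups that overlapped and without a test, or from 1.87% to 1.25% of all Rab FPKM.

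**Figure D3:**
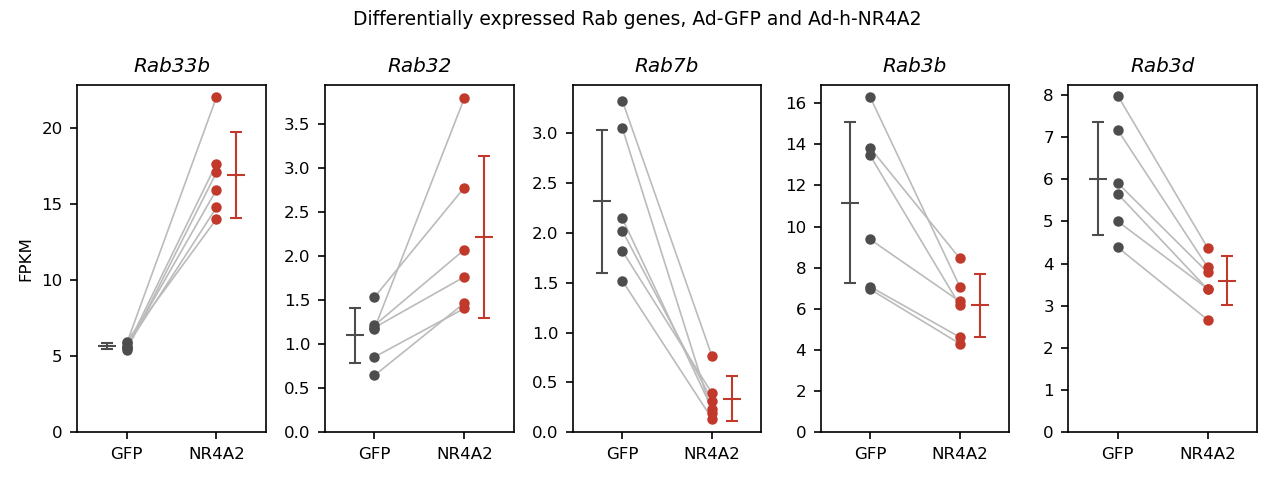
FPKM in each sample (linear axes from 0) for the 5 differentially expressed Rab genes, Ad-GFP in grey and Ad-h-NR4A2 in red, with lines joining samples of the same number and bars for the mean ± SD (n = 6). All lines go up for Rab33b and Rab32 and down for Rab7b, Rab3b and Rab3d, and the groups overlap for Rab32 and Rab3b.

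Of the Rabs of lysosome-related organelles, Rab32 was the 1 tested. It is also found on mitochondria, where it anchors protein kinase A, and lies at chr1:6299748-6314539 in Rn5. It measured 0.857, 1.54, 0.647, 1.18, 1.19 and 1.22 FPKM in Ad-GFP samples 24 to 29 and 1.41, 2.78, 1.47, 3.80, 1.77 and 2.08 in Ad-h-NR4A2. Only Ad-GFP 25 reached into the range of Ad-h-NR4A2, where number 27 was the highest, as for Rab33b. Rab32 rose from 1.10 ± 0.311 to 2.22 ± 0.922 FPKM (ratio 2.01, log2 fold change 0.90 ± 0.25, adjusted p = 0.00989, limma) and was higher in 6 of 6 pairs. It rests on 27 to 65 fragments per sample in Ad-GFP and 58 to 158 in Ad-h-NR4A2.

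Of the Rabs tied to the cilium, Rab23, a negative regulator of Hedgehog signaling, fell from 4.76 ± 0.366 to 3.85 ± 0.378 FPKM (-0.30, adjusted p = 0.00880, limma), and Rab28 did not pass. Both Rab40 genes, whose products carry a SOCS box that binds a ubiquitin ligase, fell. Rab40b went from 5.49 ± 0.525 to 4.38 ± 0.591 FPKM (-0.33, adjusted p = 0.0169) and Rab40c from 8.36 ± 1.41 to 6.42 ± 0.871 (-0.37, adjusted p = 0.0238). The Rab40c locus overlaps RGD1307155 and Wfikkn1, and its call was lost without any of 3 libraries (adjusted p 0.0513 to 0.0550).

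The 7 Rab genes listed at 0 in at least 1 sample were not tested. Rab25, of epithelial recycling, was listed at 0 in all 6 Ad-GFP samples and at 0.101 to 0.337 FPKM in the 6 Ad-h-NR4A2 samples, which corresponds to 2 to 8 fragments each. It passed when no filter on low values was applied (adjusted p = 1.76e-05, limma). Rab25 enters that fit only through Ad-h-NR4A2, and its Ad-GFP values there are the pseudocount alone. That p is therefore no support for a rise, and no fold is given against a group listed at 0. Rab33a, the relative of Rab33b, had 0 to 3 fragments per sample in Ad-GFP and 0 to 7 in Ad-h-NR4A2. Rab38, the relative of Rab32, had 0 to 3 and 1 to 7, Rab39a 0 to 5 and 1 to 3, and Rab36 0 to 3 and 0 to 2. Rab3c was above 0 in a single Ad-GFP sample, with 1 fragment. Rab19 was listed at 0 in all 12 samples, which need not mean that it is absent. In the whole series 8 values were flagged as not properly estimated, too few for all 12 of these zeros. None of the 7 genes but Rab25 passed without the filter.

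Ratios between related Rab genes within a sample do not depend on how samples were scaled. Of 18 pairs considered, 16 were above 0 in every sample, and the groups did not overlap in 2. Among single genes this held for 21.5% of all tested, and no share was computed for pairs of other genes. The 2 pairs each hold a gene whose own groups did not overlap, Rab7b and Rab22a. For Rab7a over Rab7b the ratio was 30.5 to 63.0 in Ad-GFP and 123 to 654 in Ad-h-NR4A2, a shift of 2.86 on the log2 scale. For Rab22a over Rab31 it was 0.322 to 0.616 and 0.695 to 0.997, a shift of 0.96. Rab31 was thus the more abundant of the pair in all 12 samples.

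The other pairs overlapped. Rab1a exceeded Rab1b 4.81 to 5.65-fold in Ad-GFP and 4.95 to 5.88-fold in Ad-h-NR4A2. Rab2a exceeded Rab2b by 13.5 to 16.9-fold and 16.6 to 20.1-fold, with a higher ratio in Ad-h-NR4A2 in 6 of 6 pairs. Rab11a and Rab11b were near parity, at 0.959 to 1.16 and 0.845 to 0.998, so that Rab11b was the higher in each Ad-h-NR4A2 sample. Rab6a exceeded Rab6b 40.1 to 256-fold and 32.3 to 150-fold, with the lower ratio in Ad-h-NR4A2 in 6 of 6 pairs.

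**Figure D4:**
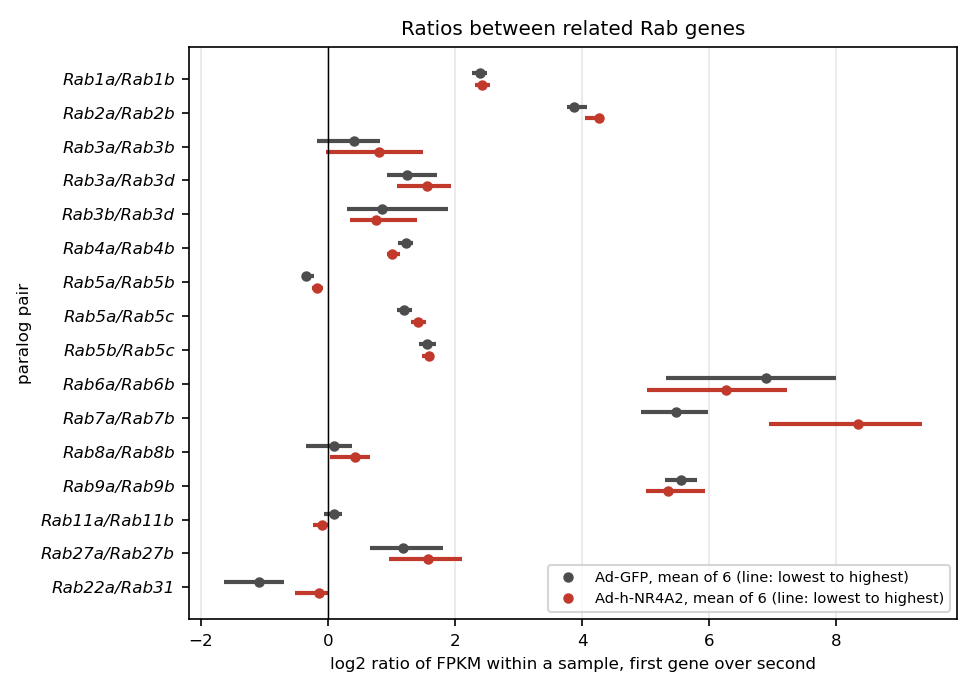
Log2 ratio of FPKM between related Rab genes within each sample, the former gene over the latter, for 16 pairs; points are means of 6 samples and lines run from the lowest to the highest sample, grey for Ad-GFP and red for Ad-h-NR4A2. The lines of the groups are separate only for Rab7a over Rab7b and Rab22a over Rab31.

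The proteins that control and read out Rab switches were followed through a list of 160 symbols, of which 127 were in the data and 114 could be tested. Of these, 15 rose (13.2%) and 32 fell (28.1%), beside 19.3% and 21.7% of all genes, and 13 were differentially expressed, 6 upward (5.26%) and 7 downward (6.14%), beside 7.94% and 7.24% of all genes. With the replicate block, 28 rose (24.6%) and 44 fell (38.6%), where 27.1% and 32.3% of all genes did. The median log2 fold change was -0.07, against -0.02 for all genes. Of 25 GTPase-activating proteins, 2 rose (8%) and 11 fell (44%). Of 30 exchange factors, 4 rose (13.3%) and 5 fell (16.7%), and of 50 effectors, 7 rose (14%) and 16 fell (32%). These shares stand beside the 19.3% and 21.7% of all genes, and no class was tested as a set. Of the 9 genes for extraction, escort and prenylation of Rabs, 2 rose (22.2%) and none fell. Among them Rabac1, which helps Rabs return to membranes, rose from 210 to 235 FPKM (0.16, adjusted p = 0.0181, limma) and was named after its values were seen.

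Among the effectors, the related cargo adaptors of Rab6 moved in opposite directions. Bicd1, which links Rab6 vesicles to dynein, rose from 0.511 ± 0.141 to 1.51 ± 0.393 FPKM (1.39, adjusted p = 5.74e-05, limma). Bicd2 fell from 124 ± 6.34 to 78.8 ± 8.49 (-0.66, adjusted p = 3.51e-06) and stayed far more abundant. Of the partners of Rab8 and Rab10, Ehbp1 fell from 15.7 ± 1.91 to 6.66 ± 1.15 FPKM (-1.23, adjusted p = 1.48e-06). The actin-oxidizing Mical3 (19.2 to 31.1 FPKM, 0.68) and Mical1 (1.78 to 2.85, 0.62) rose. Lrrk2, a kinase that phosphorylates Rab8 and Rab10, fell from 17.6 ± 1.87 to 9.17 ± 1.54 FPKM (-0.94, adjusted p = 8.82e-06). Ocrl, an inositol phosphatase bound by several Rabs, rose from 3.46 ± 0.241 to 6.43 ± 0.990 (0.86, adjusted p = 1.84e-05).

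Of the regulators, the Rab5 exchange factor Rin2 fell from 6.83 ± 0.594 to 3.52 ± 0.337 FPKM (-0.94, adjusted p = 1.35e-06, limma) without overlap. Tbc1d8, a protein with a Rab GTPase-activating domain, rose from 4.57 ± 0.308 to 10.3 ± 0.484 (1.16, adjusted p = 1.44e-08). Sgsm2, which acts on Rab32 and Rab33b in vitro, fell from 9.04 ± 0.885 to 5.66 ± 0.477 (-0.67, adjusted p = 1.84e-05), opposite to both of those Rab genes. Tbc1d10c fell from 5.76 ± 1.59 to 3.43 ± 1.10 (-0.74, adjusted p = 0.00862). The remaining differentially expressed genes of the list, Tbc1d9 (-0.81) and Tbc1d2 (0.76), lay under 1 FPKM on average.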

How the data were processed

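RNA of 6 Ad-GFP and 6 Ad-h-NR4A2 samples of ARVMs was sequenced. The authors made stranded mRNA libraries, aligned paired-end reads to Rn5 with STAR and quantified RefSeq transcripts with Cufflinks, and the deposited values are FPKM, 1 row per transcript. Groups and the numbers 24 to 29 come from the labels. The depth was recovered from low values, which for 99.2% to 99.8% of those of at most 6 fragments were whole within 0.05. Fragment numbers cover counting error only.

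Log2(FPKM + 0.1) of 10950 genes above 0 in all 12 samples, each represented by its most abundant transcript, was fitted with limma 3.58.1 (eBayes with trend, no block, two-sided, Benjamini-Hochberg) in R 4.3.3. Fold changes are on that scale and understate changes of low genes. Genes with an adjusted p below 0.05 are called, and those with a ratio of mean FPKM of at least 1.5 as well are differentially expressed. The fit was tested on simulated data. Summaries used pandas 2.3.3 and figures Matplotlib 3.10.9, under Python 3.11.15.

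Same-numbered samples deviated together (correlations of 0.347 to 0.623), and no such correlation was computed for different numbers. The numbers were taken as pairs in the pair counts and the replicate block, but not in the main fit. The study describes 6 independent experiments with cells of different rats, and its own statistics are unpaired. A fit with these numbers as replicate block was therefore run as an alternative.

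Differentially expressed Rab genes and the 5 most abundant ones are given by sample, other called, paralogous or untested Rab genes by group, and regulators if differentially expressed with a mean of at least 1 FPKM. The members, routes and lists were chosen with earlier results of these data known. Other alternatives were pseudocounts, filters, TPM, quantile normalization, no trend, other treatment of transcripts, a ratio limit of 2 and each sample left out in turn. The result of 1 gene of the regulator list is not reported here.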

Additional observations from a re-analysis of the deposited data

How the results depend on the processing

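The counts of Rab genes called higher (10) and lower (16) stayed within 1.5 times under every alternative except the replicate block, with which 16 were higher. The block added Rab2a, Rab4b, Rab6b, Rab24, Rab26 and Rab29 upward and Rab4a, Rab7a, Rab17 and Rab27b downward, and removed no call. Upregulated Rab genes numbered 2. They numbered 3 with the replicate block or without Ad-GFP 27 (Rab6b added), and without the filter (Rab25 added). Downregulated Rab genes numbered 3, 5 with the replicate block, 1 with a ratio limit of 2, and 3 to 5 without single samples. The 5 came without Ad-GFP 24 (Rab17 and Rab31 added) or Ad-GFP 28 (Rab27b and Rab31 added). The regulators and effectors called higher numbered 15, and 28 with the replicate block, and those called lower 32 and 44 (24.6% and 38.6% with the block, beside 27.1% and 32.3% of all genes). No log2 fold change of a called Rab gene changed sign under any alternative, while those of the uncalled Rab1a, Rab1b, Rab34 and Rab9b, all within 0.1 of 0, did under some. Of the 26 called Rab genes, 20 passed without each of the 12 samples, a share not computed over all called genes. Rab11a, Rab8a, Rab35, Rab3a, Rab5c and Rab40c did not, for 9, 9, 7, 7, 5 and 3 of the samples. Rab11a failed without Ad-GFP 24 to 28 or Ad-h-NR4A2 25, 26, 27 or 29, and Rab8a without Ad-GFP 25, 27, 28 or 29 or Ad-h-NR4A2 24 to 27 or 29. Rab35 failed without Ad-GFP 24, 26 or 28 or Ad-h-NR4A2 25, 26, 27 or 29, and Rab3a without Ad-GFP 25, 26, 27 or 29 or Ad-h-NR4A2 25, 28 or 29. Rab5c failed without Ad-GFP 26 or 28 or Ad-h-NR4A2 25, 27 or 29, and Rab40c without Ad-GFP 25 or Ad-h-NR4A2 25 or 27. On the TPM scale Rab11a, Rab8a and Rab21 were not called, with quantile normalization Rab11a, without trend Rab11a and Rab8a, and without the filter or with every transcript by itself Rab8a. With a pseudocount of 1 the log2 fold change was -1.29 for Rab7b and 0.58 for Rab32. Depth limits the Rab genes under 1 FPKM, where a sample holds few fragments.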
